A study of Mus musculus with 6 samples.

Results

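Neuregulins and the ErbB receptors that bind them were followed in gut samples of E10.5 mouse embryos, with and without the receptor gene Ret. The 8 genes were the 4 neuregulins Nrg1, Nrg2, Nrg3 and Nrg4 and the 4 receptors Egfr, Erbb2, Erbb3 and Erbb4. They were chosen by gene symbol, and each matched 1 of the 23233 gene lines of the authors' deposited table. The authors' test covered 6 of the 8, because Erbb4 and Nrg3 had too little signal and are marked as not tested. The groups were 3 Ret null gut samples, homozygous for a null allele of the receptor tyrosine kinase Ret, and 3 wildtype gut samples. The strain is given as C57BL/6J for all 6, and the embryos as male. The labels name no other allele or treatment in either group, and do not say which part of Ret the null allele lacks or whether a sample held 1 embryo or several. The table holds 1 FPKM value per genotype and no value per sample. FPKM is the number of sequenced fragments of a gene relative to its transcript length and to the size of the library, so levels can be set side by side between genes. Without values per sample, the spread between replicates is not known, nor is the depth.

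Neuregulins are growth factors with an EGF-like domain that bind ErbB3 or ErbB4 and so bring about receptor pairs. ErbB2 binds no known ligand of its own and signals as the partner of the other receptors, ErbB3 has only weak kinase activity and depends on such a partner, and EGFR (ErbB1) responds to EGF-type ligands rather than to neuregulins. In the peripheral nervous system, neuregulin 1 acting on ErbB3 and ErbB2 carries neural crest cells into the glial and Schwann cell lineage, and the same receptors are also made by many epithelia.

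Ret checked the genotype labels: it stood at 0.0354 FPKM in Ret null gut, against 8.80 FPKM in wildtype gut. The male description did not go with all sex genes. Xist, transcribed from the silenced X chromosome of female cells, stood at 31.8 FPKM in Ret null gut against 0.136 FPKM in wildtype gut. The 4 Y-linked genes Ddx3y, Eif2s3y, Kdm5d and Uty fell 0.71 to 0.99 on the log2 scale and remained between 3.25 and 18.1 FPKM in Ret null gut. All 8 genes of the neuregulin and ErbB group are autosomal. A change is called below where the authors' deposited table gives a q under 0.05, which held for 14.6% of 13430 tested lines (5.69% higher and 8.88% lower in Ret null gut), with a median log2 fold change of 0.01 over all tested lines.

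Among the receptors, Erbb2 was by far the most abundant. It stood at 20.9 FPKM in Ret null gut and 20.2 FPKM in wildtype gut, which was 64.7% and 59.3% of the summed FPKM of the 4 receptors. Egfr, the receptor for EGF-type ligands, stood at 6.33 FPKM in Ret null gut and 7.22 FPKM in wildtype gut. Erbb3 came next, with 5.04 FPKM in Ret null gut and 6.56 FPKM in wildtype gut. Erbb4, the neuregulin receptor of heart and neurons that has a full kinase of its own, stood at 0.0138 FPKM in Ret null gut and 0.112 FPKM in wildtype gut, and was not tested. The order Erbb2, Egfr, Erbb3, Erbb4 was the same in both genotypes. With no spread per genotype, it cannot be said whether the neighbours Egfr and Erbb3 differ in level. Of the receptors that bind neuregulins, Erbb3 was thus the one measured well enough to test. Both Erbb4 values lay under 0.871 FPKM, the lowest that any tested line reached in the higher of its values.

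The neuregulins were all low. Nrg2 stood at 2.42 FPKM in Ret null gut and 1.23 FPKM in wildtype gut. Nrg1, the main ligand of the Schwann lineage, stood at 1.89 FPKM in Ret null gut and 1.60 FPKM in wildtype gut. Nrg4, a short ligand known mainly for binding ErbB4, stood at 1.79 FPKM in Ret null gut and 1.77 FPKM in wildtype gut. Nrg3, an ErbB4 ligand of the nervous system, stood at 0.0555 FPKM in Ret null gut and 0.128 FPKM in wildtype gut and was not tested. In Ret null gut the order was Nrg2, Nrg1, Nrg4, Nrg3, and in wildtype gut Nrg4, Nrg1, Nrg2, Nrg3. As no spread per genotype is given, it cannot be said whether the order of Nrg1, Nrg2 and Nrg4 differs between genotypes. The summed FPKM of the 4 neuregulins was 6.15 in Ret null gut and 4.72 in wildtype gut, against 32.3 and 34.1 for the 4 receptors. Nrg2 made up 39.4% of the neuregulin sum in Ret null gut and 26.0% in wildtype gut.

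**Figure D1:**
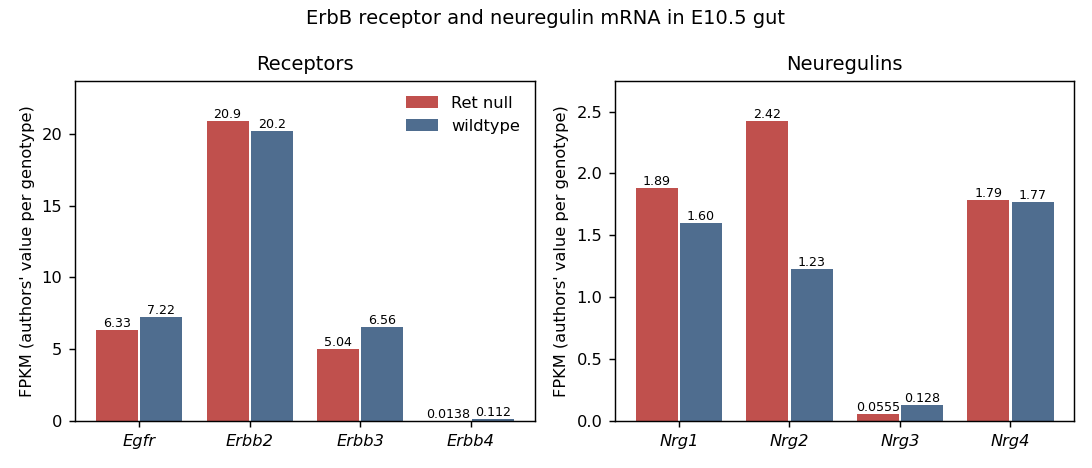
FPKM of the 4 receptors (left) and the 4 neuregulins (right) in E10.5 gut, as the authors' single value per genotype, with Ret null bars left of wildtype bars and no error bars because no values per sample are given. Erbb2 stands at 20.9 and 20.2 FPKM, every neuregulin lies under 2.5 FPKM, and Nrg2 is the neuregulin with the widest gap (2.42 against 1.23 FPKM).

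Of the 6 tested genes, Nrg2 rose, Erbb3 fell and 4 did not pass. That is 2 of 6 called, 1 in each direction, beside 14.6% of all tested lines, and 2 genes are too few to read as more than their own values. Under other call rules the members' count was 2 at q under 0.1 (17.5% of all tested lines called) and 1 at q under 0.01 (9.81%). It was 2 among lines at 1 FPKM or more (14.5%) and 0 of the 3 members at 5 FPKM or more (12%). A minimum change of 1.5-fold left 1 member (8.62%). Treating the authors' test statistic as normal, here called the normal-deviate rule, left 0 (4.5%). Errors given after ± are standard errors of the log2 fold change (Ret null over wildtype), obtained as that change divided by the authors' test statistic. Read as normal, these errors are wider than the authors' p-values go with. Erbb3 had p = 0.007 in the authors' deposited table and 0.108 unadjusted under the normal-deviate rule. An implied 95% interval can therefore include 0 where the authors' test calls a change. In unsorted gut tissue, fewer cells of a type and less RNA per cell cannot be told apart, which applies to every change below. The sample titles say only gut, and how much neighbouring tissue each sample held is not known. A difference in the tissue taken therefore cannot be told apart from a difference of genotype.

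Nrg2 was 1.98-fold higher in Ret null gut, or 0.98 ± 0.44 on the log2 scale. Its q in the authors' deposited table was 0.00658. Its implied 95% interval ran from 0.11 to 1.85. Of the called lines that were higher in Ret null gut, 34.7% had a larger change. On the log2(FPKM + 1) scale, which shrinks changes of low genes, the difference was 0.62. Lines averaging 1 to 5 FPKM, where Nrg2 lies, were called more often (21.5%) than those of higher bins. The call did not hold under the normal-deviate rule, where the adjusted p over all lines was 0.299.

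Erbb3 was 1.30-fold lower in Ret null gut, or -0.38 ± 0.24 on the log2 scale. Its q in the authors' deposited table was 0.0484, near the threshold, since 15 of the 1956 called lines had a larger q. Of the called lines that were lower in Ret null gut, 85.6% had a larger change than Erbb3. Its implied 95% interval, -0.85 to 0.08, included 0, and the adjusted p under the normal-deviate rule was 0.71. In the bin of 5 to 20 FPKM, which holds Erbb3, 14.1% of tested lines were called.

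The other receptors and ligands did not pass. Erbb2 differed by 0.05 ± 0.19 on the log2 scale (the authors' deposited table gives q = 0.891), with an interval from -0.32 to 0.41. This was the narrowest interval of the 6. Egfr differed by -0.19 ± 0.22 (q = 0.384, also from the authors' deposited table). Nrg1 had 0.24 ± 0.46 and Nrg4 had 0.02 ± 0.81 on the same scale, for which the authors' deposited table gives q = 0.732 and q = 0.992. The implied intervals of these ligands, -0.66 to 1.14 for Nrg1 and -1.57 to 1.60 for Nrg4, hold the change seen in Nrg2. Their width rests on the implied errors. For Nrg1 the authors' deposited table gives p = 0.403, against 0.602 unadjusted under the normal-deviate rule. Whether Nrg1 or Nrg4 could have changed as much as Nrg2 was not tested.

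**Figure D2:**
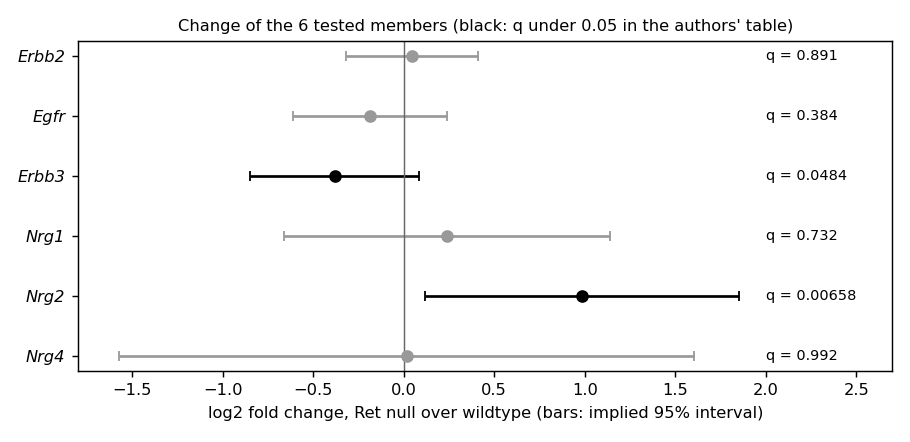
Log2 fold change (Ret null over wildtype, x axis) of the 6 tested genes, with bars for the 95% interval implied by the authors' test statistic and the authors' q at the right. Black points (Erbb3 at -0.38 and Nrg2 at 0.98) have q under 0.05, and the Erbb3 bar reaches across 0.

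The differences between members given here had implied 95% intervals that include 0. The level of Erbb2 over that of its partner Erbb3 was 4.15 in Ret null gut and 3.08 in wildtype gut. The change of Erbb2 minus that of Erbb3 was 0.43 ± 0.30 on the log2 scale, taking the errors as independent, with a 95% interval from -0.16 to 1.02. The change of Nrg2 minus that of Nrg1 was 0.74 ± 0.64, with an interval from -0.51 to 1.99. Neither implied interval leaves out 0, but the implied errors are wider than the authors' p-values go with. Whether Erbb3 changed differently from Erbb2, or Nrg2 from Nrg1, is therefore not settled by these values.

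**Figure D3:**
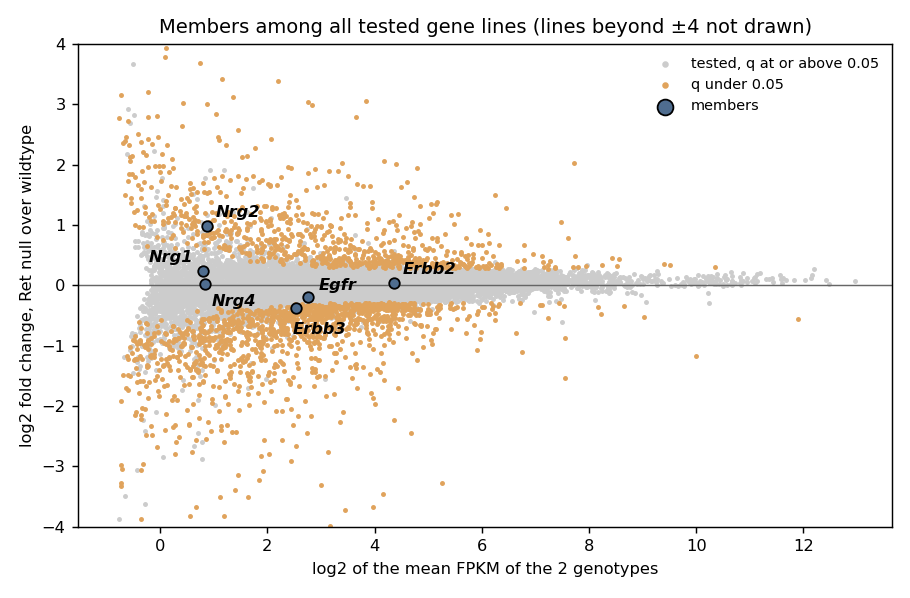
Log2 fold change (Ret null over wildtype, y axis) against log2 of the mean FPKM (x axis) for the tested gene lines, with called lines in orange, uncalled lines in grey and the 6 tested members as large points. Erbb3 at -0.38 lies near the inner edge of the called lines, 85.6% of the called falls being larger, and Nrg2 at 0.98 lies among low lines where changes scatter widely.

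The gene models behind the lines limit what some values cover. The Nrg1 line runs from 31818028 to 31918203 on chromosome 8 (mm10), a span of 100.2 kb, whereas the RefSeq gene on the same build (GRCm38.p6) spans 1084.2 kb. Nrg1 is read from the minus strand, so the line's higher coordinate is its upstream end. Of 12 protein-coding Nrg1 transcripts in GENCODE M21, 4 start within 1 kb of the line's upstream end or inside it. The other 8 start beyond it, 6 of them 90.9 to 91.2 kb upstream and 2 about 966 kb upstream. Those 8 starts lie outside the line. At the downstream end the RefSeq gene also runs past the line, to 31807452. Which exons the line's FPKM covers was not looked up. Whether the long and the short forms of Nrg1 changed differently cannot be read from 1 value per gene.

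Overlapping genes touch further lines. The Nrg4 line (chromosome 9, 55208935 to 55283625) has the same span as that of Fbxo22, a ubiquitin ligase subunit at 24.4 FPKM in Ret null gut and 21.7 FPKM in wildtype gut, and the RefSeq genes overlap by 4212 bases. The strand setting of the authors' counting is not given in the sources used here, so reads in the overlap could belong to either gene, and Nrg4 has the largest error of the 6 tested genes. The Erbb2 line (chromosome 11, 98412484 to 98438988) has the same span as that of Mien1, but the RefSeq genes overlap by only 9 bases. Mien1 stood at 20.8 FPKM in Ret null gut and 15.7 FPKM in wildtype gut and did not pass (q = 0.575 in the authors' deposited table). The Egfr line (chromosome 11, 16752203 to 16913907) equals the RefSeq gene exactly, and the Erbb3 line (chromosome 10, 128569368 to 128589501) covers 20.1 of the 22.1 kb of its RefSeq gene and shares its span with no other line. The Nrg2 line covers 179.5 of 183 kb on chromosome 18.

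Genes whose pair of values lay nearest to those of the called members were looked up over the 2 genotype values, by Euclidean distance of log2(FPKM + 1). Nearest to Erbb3 were Mertk (5.03 FPKM in Ret null gut, 6.59 FPKM in wildtype gut) and S100a13 (5.01 FPKM in Ret null gut, 6.66 FPKM in wildtype gut). Neither of these passed, with q = 0.0567 for Mertk and q = 0.444 for S100a13 in the authors' deposited table. Nearest to Nrg2 were Tjp3 (2.45 FPKM in Ret null gut, 1.20 FPKM in wildtype gut) and Ffar4 (2.54 FPKM in Ret null gut, 1.23 FPKM in wildtype gut). Both of these passed, and the authors' deposited table gives q = 0.0338 for Tjp3 and q = 0.0268 for Ffar4. With 2 values per gene such neighbours are common: 51 of 13327 lines lay within a distance of 0.1 of Erbb3 and 13 within that distance of Nrg2.

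Other ligands of the EGF family, which act on EGFR or ErbB4, were as low as the neuregulins. Of 7 listed, the authors tested 2, and neither passed. In Cuffdiff's own p before adjustment 0 of these 2 were under 0.05, and the normal-deviate rule called 0. Hbegf, the heparin-binding ligand, stood at 2.84 FPKM in Ret null gut and 3.32 FPKM in wildtype gut (log2 fold change -0.22 ± 0.35). Tgfa, encoding transforming growth factor alpha, stood at 1.63 FPKM in Ret null gut and 1.22 FPKM in wildtype gut (0.42 ± 0.39). The 5 untested ligands, among them Egf and Btc, stayed under 0.7 FPKM in both genotypes, and Areg is listed at 0 in wildtype gut.

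Proteases that release or process the membrane-bound ligands were expressed at 2.05 to 74.6 FPKM in Ret null gut and at 1.37 to 68.9 FPKM in wildtype gut. Of 15 tested, 1 fell, 0 rose and 14 did not pass, with a median log2 fold change of -0.01. That is 6.67% called, beside 14.6% of all tested lines. By Cuffdiff's p before adjustment 1 was higher and 1 lower at 0.05, and by the normal-deviate rule 0 were higher and 1 lower. The fall was in Adam12, a metalloprotease of mesenchyme and muscle, at 11.1 FPKM in Ret null gut against 16.5 FPKM in wildtype gut (-0.57 ± 0.18, q = 0.000775 in the authors' deposited table).

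Of 33 tested adaptors and effectors that carry the ErbB signal, 1 rose, 3 fell and 29 did not pass, so 12.1% were called beside 14.6% of all tested lines. The list's median log2 fold change was -0.03. The rise was in Grb7, an SH2 adaptor that binds ErbB2 and ErbB3, at 14.2 FPKM in Ret null gut against 6.57 FPKM in wildtype gut (1.11 ± 0.23). The falls were in the docking protein gene Gab2 (-0.44 ± 0.20), the kinase gene Braf (-0.31 ± 0.18) and Pik3r3, a regulatory subunit of PI3-kinase (-0.30 ± 0.18). The authors' deposited table gives them q = 0.00206, 0.0379 and 0.0422 in that order. None of these falls held under the normal-deviate rule, while the rise of Grb7 did. The RefSeq gene Grb7 lies inside the span of the RefSeq gene Mien1. The Mien1 line, however, has the span of the Erbb2 line and ends at 98438988, before the RefSeq start of Grb7 at 98446834.

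Negative regulators of the receptors included the largest fall of the 5 pathway lists. Of 15 tested, 1 rose, 3 fell and 11 did not pass (median log2 fold change -0.09). That is 26.7% called, beside 14.6% of all tested lines. Lrig1, a transmembrane protein that promotes degradation of ErbB receptors, rose to 28.0 FPKM in Ret null gut, against 13.9 FPKM in wildtype gut (1.01 ± 0.20). Cbl, a ubiquitin ligase for activated EGFR as well as for Ret, fell to 1.72 FPKM in Ret null gut, against 7.28 FPKM in wildtype gut (-2.08 ± 0.28). The other falls were in Socs4 (-0.53 ± 0.29) and Lrig2 (-0.34 ± 0.19), whose q in the authors' deposited table was 0.0347 and 0.0294. Under the normal-deviate rule Lrig1 and Cbl passed and Socs4 and Lrig2 did not.

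Genes that respond to the ERK pathway, which ErbB receptors share with Ret, FGF receptors and others, moved both ways. Of 19 tested, 3 rose, 2 fell and 14 did not pass (median log2 fold change -0.01). That is 26.3% called, beside 14.6% of all tested lines. Phlda1 stood at 23.7 FPKM in Ret null gut against 12.6 FPKM in wildtype gut (0.91 ± 0.21), and Myc and Fosl2, which encode transcription factors, rose by 0.53 ± 0.21 and 0.42 ± 0.19. Dusp6, a phosphatase that acts on ERK, fell to 21.3 FPKM in Ret null gut, against 33.0 FPKM in wildtype gut (-0.63 ± 0.18). Under the normal-deviate rule 1 gene was higher (Phlda1) and 1 lower (Dusp6). Egr2, a transcription factor of myelinating Schwann cells, was not tested and stood at 0.0941 FPKM in Ret null gut and 0.0855 FPKM in wildtype gut.

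**Figure D4:**
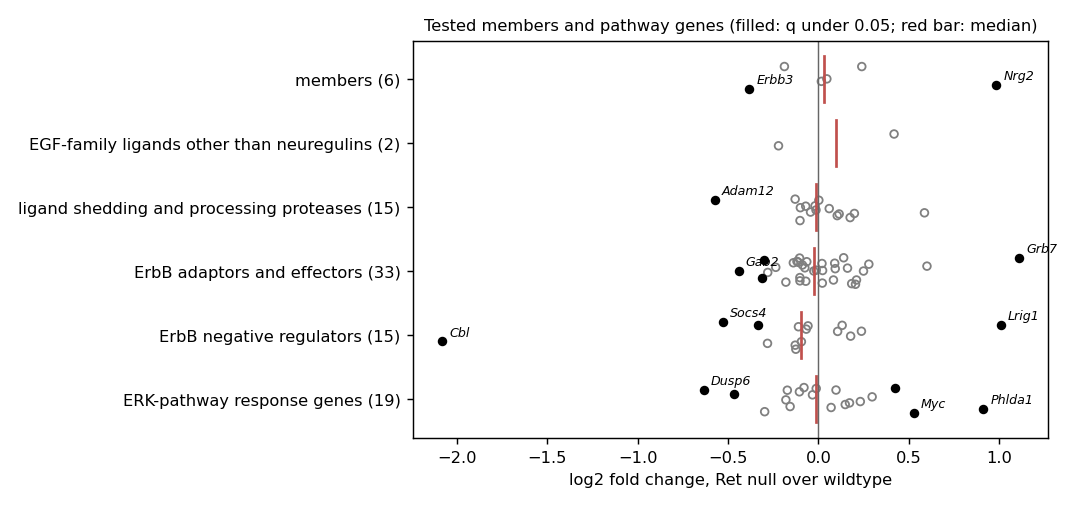
Log2 fold change (Ret null over wildtype, x axis) of the 6 tested members and of the tested genes of 5 pathway lists, 1 point per gene, filled where the authors' deposited table has q under 0.05, with the list median as a red bar. Medians lie between -0.09 and 0.10, and the widest changes are Cbl at -2.08 and Grb7 at 1.11.

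Markers of several cell types in the gut changed as well. Of 11 tested neural crest and Schwann markers 9 fell, 0 rose and 2 did not pass, and their median change was -1.55 on the log2 scale. Their summed level was 35.3 FPKM in Ret null gut against 71.4 FPKM in wildtype gut. Dhh, a Schwann lineage signal, had a log2 fold change of -1.76 ± 0.35. None of the 15 listed markers is at 0 in either genotype, but S100b and Gfap, markers of later glia, stood under 0.3 FPKM in both. Of 17 tested neuronal markers 16 fell and 0 rose (median -1.29). In the opposite direction, all 14 tested gut epithelium markers rose, with a median of 1.13 and a summed level of 359.5 FPKM in Ret null gut against 165 FPKM in wildtype gut. Foxa2, an endoderm transcription factor, and Ihh, a hedgehog ligand of the epithelium, stood at 7.09 and 8.29 FPKM in Ret null gut, against 1.32 and 2.13 FPKM in wildtype gut.

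Erbb3, at -0.38 ± 0.24, lay between the neural crest and the epithelial medians, but so did all 6 tested members. That position is therefore not particular to Erbb3. Both kinds of cell are known to express Erbb3, and the part of either in its value was not tested. Erbb2, at 0.05 ± 0.19, is made by epithelia too, and their part in its value was not tested. Grb7 and Lrig1, which epithelia are known to express, had log2 fold changes of 1.11 and 1.01. The medians of the epithelial list (1.13) and of the gut mesenchyme and smooth muscle list (1.16) were both close to these. Closeness to a list median therefore does not single out a cell type. The part of the epithelium or of the mesenchyme in these values was not tested either.

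Other tissues moved as well. Of 14 tested gut mesenchyme and smooth muscle markers 12 rose and 0 fell (median 1.16, summed level 988 FPKM in Ret null gut against 450.1 FPKM in wildtype gut), and all 11 liver bud markers rose (median 3.41, summed level 347 FPKM in Ret null gut against 29.3 FPKM in wildtype gut). Among somite and skeletal muscle markers 11 of 12 tested fell, and 0 rose (median -3.86, summed level 12.1 FPKM in Ret null gut against 115 FPKM in wildtype gut), and so did all 5 tested nephric duct and gonadal ridge markers (median -1.84). Of 7 mesothelium markers 1 rose and 3 fell (median -0.09), and of 9 endothelial markers 0 rose and 3 fell (median -0.21). For each cell type list with 0 genes called in 1 direction, Cuffdiff's p before adjustment was under 0.05 for 0 genes in that direction, and the normal-deviate rule called 0. That rule also called 0 of the endothelial falls. Adam12, which skeletal muscle also makes, fell beside the muscle markers, whose part in its value was not tested.

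Heart tissue is known to use Erbb4. Of 6 tested heart markers 1 rose (Nkx2-5) and 1 fell (Tnnt2, also made in embryonic skeletal muscle), with a median of -0.28. The heart markers Nppa and Myh6 stood at 0.230 and 0.0951 FPKM in Ret null gut and at 0.251 and 0.282 FPKM in wildtype gut. Myl7 and Tnni3, further heart markers, stood at 2.96 and 3.21 FPKM in Ret null gut and at 4.43 and 3.16 FPKM in wildtype gut, and neither passed. Among spinal cord motor neuron markers Olig2 is listed at 0 in both genotypes, and Chat, Slc18a3 and Lhx3 stood under 0.8 FPKM. Chat, Slc18a3 and Lhx3 were not tested, and their values were lower in Ret null gut. They stood at 0.0677, 0.273 and 0.0131 FPKM there, against 0.208, 0.775 and 0.0717 FPKM in wildtype gut. Of that list's tested members, Mnx1 and Isl2 both rose, with log2 fold changes of 2.64 ± 0.71 and 1.30 ± 0.31.

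**Figure D5:**
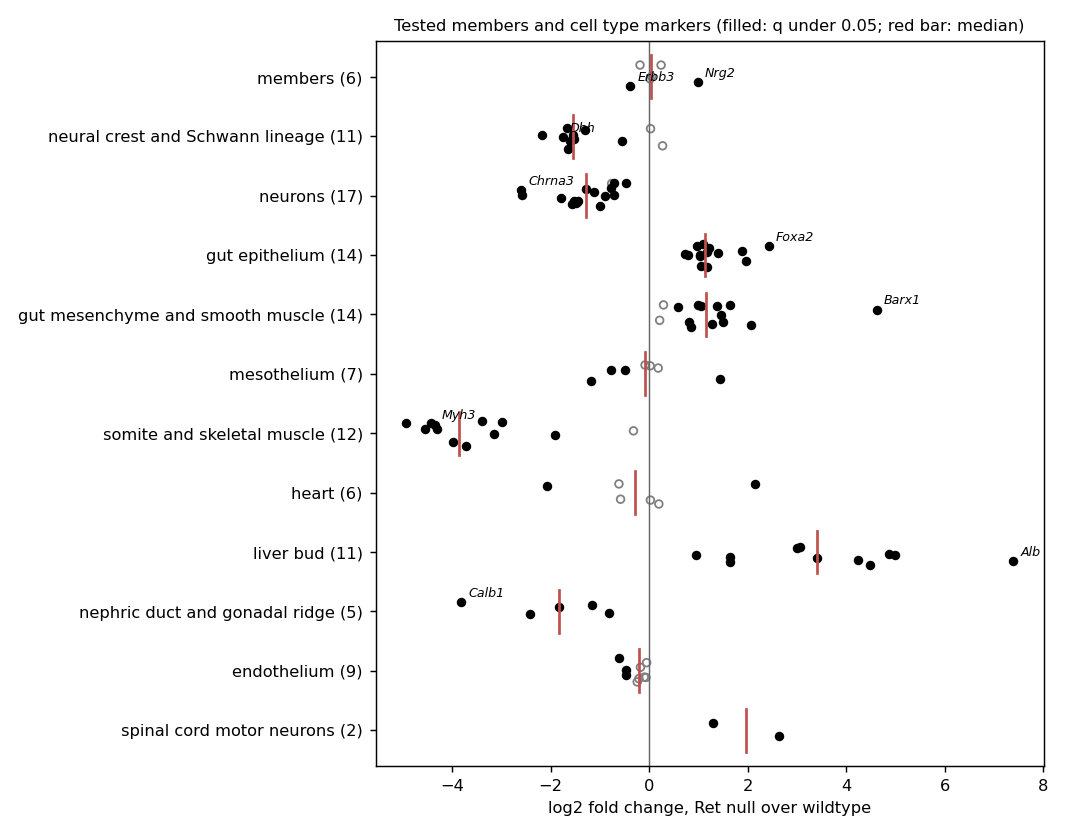
Log2 fold change (Ret null over wildtype, x axis) of the 6 tested members and of the tested genes of 11 cell type marker lists, 1 point per gene, filled where the authors' deposited table has q under 0.05, with the list median as a red bar. The members lie between -0.38 and 0.98, whereas the list medians run from -3.86 for somite and skeletal muscle to 3.41 for the liver bud.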

How the data were processed

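Messenger RNA was captured from gut RNA on oligo-dT beads and sequenced on an Illumina instrument after TruSeq preparation, per the labels. The submitters' processing notes list Picard, TopHat2, Cufflinks, Cuffdiff and mm10, with no version for any tool. Not given in the sources used here are settings, annotation and strand handling. The deposited table holds the authors' FPKM per genotype, their p-value and q-value, a test statistic (a score) and a log2 fold change. The genotype columns carry only a letter each, read as wildtype and homozygous null, which the Ret value goes with, and hold pooled values. Of 23234 lines, 1 held 2 records run together and was not used. Fold changes printed were taken anew from the FPKM values. Adjusting the authors' p-values by Benjamini and Hochberg over 13430 tested lines gave their q-values to within 5.9e-05. Implied errors are the log2 fold change over the test statistic, from which the deposited q-values cannot be derived. The normal-deviate rule, an alternative, took a p from that statistic as if normal and adjusted it likewise.

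The test was the authors' own q under 0.05, since no test over samples could be run on 1 value per genotype. Nothing says that samples came from separate litters, and the sample titles number the replicates without naming separate embryos. If the replicates were libraries of the same tissue, the authors' p-values would measure technical spread only. The members and the 17 gene lists (5 pathway lists, 12 marker lists including sex genes) were chosen with earlier results of these data known. Named genes were all 8 members, Ret, up to 4 called genes per pathway list and 2 per marker list (smallest q first, ties by size of change; the 2 most abundant where none was called), the sex genes, and the 2 nearest lines to each called member. Not every gene under this rule is reported here. Untested genes given as levels, Myl7, Tnni3 and the neighbours of members, were named after their values were seen. The listed gene Hras was found under its synonym Hras1. RefSeq (GRCm38.p6) and GENCODE M21 are on the same assembly as mm10, and starts were raised by 1. Python 3.11.15, pandas 2.3.3, numpy 2.4.6, scipy 1.17.1 and matplotlib 3.10.9 were used, and the adjustment was tested on simulated data.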

Additional observations from a re-analysis of the deposited data

How the results depend on the processing

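Of the 6 tested members, 2 were called at q under 0.05, at q under 0.1 and when p was adjusted again over lines at 1 FPKM or more. The count was 1 at q under 0.01 and 1 with a minimum change of 1.5-fold, Nrg2 in both cases. It was 0 among lines at 5 FPKM or more, where Nrg2 is filtered out and Erbb3 had an adjusted p of 0.0561, and 0 under the normal-deviate rule, by which Nrg2 had an unadjusted p of 0.0265 and Erbb3 of 0.108. Adding 1 or 0.1 FPKM to both values, or taking the deposited log2 value, cannot turn the direction of a change, so these alternatives do not test it. Centring on the median of tested lines at 1 FPKM or more gave 0.97 for Nrg2 and -0.39 for Erbb3. Over all lists 108 genes were called, between 80 and 113 under the alternatives. In single lists, the falls of adaptors dropped from 3 to 1 at q under 0.01 and to 0 under the normal-deviate rule, those of negative regulators from 3 to 1 under both, and rises of ERK response genes from 3 to 1 under that rule. No paired analysis was possible because the table holds no value per sample, and for the same reason no replicate could be left out and the Ret null libraries with Xist could not be set apart. Values per line rest on unknown depth, and the median implied error was 0.39 for lines averaging 1 to 5 FPKM and 0.22 from 5 to 20 FPKM.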

Other observations

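Genes next to the members in the genome were looked up within 60 kb on the RefSeq table. Of 17 tested neighbours of 5 members, 1 rose and 2 fell, beside 14.6% of all tested lines called in either direction. The neighbours' median log2 fold change was 0.03. The rise was Grb7, which begins 9.12 kb beyond the end of Erbb2 on chromosome 11 (98446834 to 98455373, GRCm38.p6) and was 2.16-fold higher in Ret null gut, beside a log2 fold change of 0.05 for Erbb2. On the other side of Erbb2, neither Stard3 (0.03) nor Pgap3 (0.01) passed. Tcap, a gene of the muscle sarcomere 27.5 kb away, fell to 0.113 FPKM in Ret null gut, against 1.10 FPKM in wildtype gut (-3.27 ± 1.75, q = 0.0309 in the authors' deposited table), and Plek, 57.3 kb from Egfr, had -0.57 ± 0.31 (q = 0.0268 in the authors' deposited table). Neither fall held under the normal-deviate rule.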
